A study of Mus musculus with 6 samples.

Results

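The 10 genes described here are transcriptional targets of p53 that were listed by name: Cdkn1a, Mdm2, Plk2, Pmaip1, Bbc3, Bax, Trp53inp1, Sesn1, Gadd45a and Zmat3. Their rows were found by symbol in a deposited table of 55414 mouse gene identifiers, and all 10 were among the 14807 genes with enough counts to be tested. RNA came from AY-mICC, a mouse line used to study intrahepatic cholangiocarcinoma, which arises from bile ducts in the liver. The 3 control libraries (shCon) have the genotype "control" and the 3 knockdown libraries (shCopa) the genotype "Copa knockdown"; both groups were the same line, with no further treatment listed. Copa encodes a subunit of COPI, the coat of vesicles that return proteins from the Golgi to the endoplasmic reticulum. The sh prefix is the usual one for a short hairpin RNA, but the hairpin sequences, how many were used, the time after knockdown and the p53 status of the line are not stated in the labels. No label says whether replicates were separate cultures, so the p-values measure the spread between these libraries, which may be technical.

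The protein p53 is a transcription factor that is kept low by the ubiquitin ligase MDM2 and becomes stable after DNA damage and other stresses. It binds a response element made of a pair of decamers in or near its target genes. The targets act in several ways: CDKN1A (p21) and GADD45A slow the cell cycle, BAX, PUMA and NOXA act in mitochondrial apoptosis, sestrins and TP53INP1 act in redox control and autophagy, and MDM2 closes a feedback loop on p53 itself. Several of these genes also respond to other stress-activated factors, and the level of p53 target transcripts is not a direct measure of p53 protein.

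Library totals ran from 19634876 to 24546142 estimated counts. Expression is given as CPM, which are counts scaled to library size. Copa itself measured 420, 517 and 527 CPM in shCon 1 to 3 against 186, 182 and 187 CPM in shCopa 1 to 3, which is 37.9% of the control level in the fit. Across the 14807 genes, shCon 1 stood apart from its group, with r = 0.974 and 0.972 to shCon 2 and 3 against 0.990 between those. Of the bile duct markers, Krt7, Krt8, Krt18, Krt19, Sox9 and Cdh1 were present, while Epcam was under 1 CPM in every library. The 8 markers summed to 5094 to 6089 CPM in shCon and 4020 to 4237 CPM in shCopa. Of the markers of other cells, all but Dcn and Csf1r were low: the leukocyte list summed to 141 to 181 CPM in shCon and 88.4 to 90.7 CPM in shCopa, nearly all of it Csf1r, and Cd3e, Adgre1 and Itgam stayed under 1 CPM. The fibroblast list summed to 184 to 223 CPM and 168 to 183 CPM, mostly Dcn, with Col1a2, Col3a1, Pdgfra and Lum under 1 CPM. The hepatocyte list summed to 8.37 to 13.3 CPM in shCon and 22.8 to 24.2 CPM in shCopa, mostly Alb, with 3 of 5 genes under 1 CPM throughout, and the endothelial list to 0.0822 to 0.232 CPM and 1.55 to 3.59 CPM, with 3 of 4 under 1 CPM. Ptprc, the pan-leukocyte marker, had 0, 1 and 1 counts in shCon 1 to 3 and 21, 25 and 25 counts in shCopa 1 to 3. The part of these differences in the results below was not tested.

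The sequences most like the textbook p53 response element were read from RefSeq promoter windows of the build GRCm38.p6, which reach from 250 bases before a transcript start to 50 after it. They are shown because p53 acts on its targets through such elements. Each decamer had to hold CNNG at its bases 4 to 7, with 0 or 1 base between decamers, and the score is the number of the 20 bases that match the consensus p53 response element. The element is its own reverse complement, so a search of one strand covers both. Windows that hold such a pair of cores were found for 7 of the 10 genes, some with several starts. For Pmaip1, Trp53inp1 and Zmat3 no windows were used, so their absence here is not a negative result. Windows without a pair were not listed for these genes, but they remain in the total behind the shares given below. The capitals mark the CNNG cores.
Cdkn1a: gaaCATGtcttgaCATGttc
Bax: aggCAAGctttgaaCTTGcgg
Bbc3: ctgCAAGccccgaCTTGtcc
Sesn1: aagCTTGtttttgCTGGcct

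The Cdkn1a sequence lies at chr17:29090928-29090947 on the plus strand, 51 bases before an annotated start, and matched 19 of 20 bases. A score of 19 or more was found in 0.11% of 32851 promoter windows of the same length. The Bax sequence, at chr7:45467079-45467099 on the minus strand and 201 bases before the start, matched 18 of 20 bases with a 1-base spacer, a score reached in 0.682% of windows. The Bbc3 sequence, at chr7:16309486-16309505 on the plus strand, and the Sesn1 sequence, at chr10:41887266-41887285 on the plus strand, each matched 17 bases, a score reached in 2.82% of windows. They begin 97 and 173 bases before a start. The 2 Cdkn1a windows lie apart, at chr17:29090729-29091028 and chr17:29093519-29093818, as do the 2 Sesn1 windows, at chr10:41810324-41810623 and chr10:41887189-41887488. Which annotated start these cells use was not tested. These shares are for single windows, while the sequences shown are the best of 2 windows with a pair of cores for Cdkn1a, 3 for Bbc3 and 2 for Sesn1. The others of these windows scored 13 for Cdkn1a, 14 and 12 for Bbc3 and 12 for Sesn1. These scores were reached in 59.8%, 42.2%, 71.8% and 71.8% of windows. The best matches in the windows of Plk2, Mdm2 and Gadd45a held 15, 11 and 8 of the 20 bases, scores reached in 22.9%, 78.5% and 83.7% of windows. A match is a likeness of letters and not a measured binding site, and elements outside these windows were not searched.

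Of the 10 genes, 5 rose in shCopa (Plk2, Pmaip1, Gadd45a, Mdm2 and Cdkn1a), 2 fell (Sesn1 and Zmat3) and 3 did not pass the test (Trp53inp1, Bbc3 and Bax), by edgeR's quasi-likelihood test at a Benjamini-Hochberg adjusted p of 0.05 over all 14807 genes. In the same comparison 18.2% of all tested genes were called higher and 18.4% lower, 36.5% in all. The members' median log2 fold change (shCopa minus shCon) was 0.28, with a range from -0.62 to 2.13, beside a median of -0.01 over all tested genes. For the 5 genes that rose and the 2 that fell, no shCopa library lay within the range of shCon, and for the other 3 the ranges overlapped. Among all tested genes, 27.2% were without overlap and higher and 26.9% without overlap and lower. In RNA from bulk cultures, a change in the share of cells that express a gene and a change in RNA per cell cannot be told apart.

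**Figure D1:**
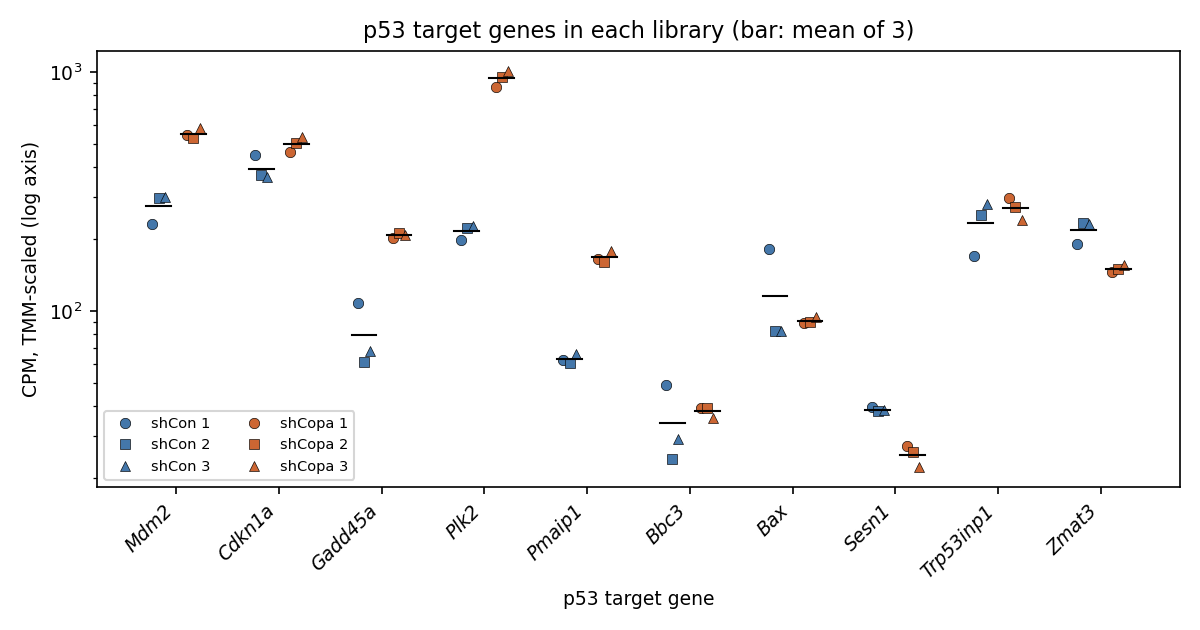
Each point is 1 library, as CPM on a log axis, for shCon (blue) and shCopa (orange), with replicates 1 to 3 as circle, square and triangle and the mean of 3 as a bar. Plk2, Pmaip1, Gadd45a and Mdm2 show clear gaps between the groups, Cdkn1a a narrow one, and shCon 1 sits far from shCon 2 and 3 for Bax, Bbc3 and Gadd45a.

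Mdm2 (ENSMUSG00000020184), the ligase that marks p53 for degradation and is itself induced by p53, was at 232, 298 and 299 CPM in shCon 1 to 3, against 543, 532 and 581 CPM in shCopa 1 to 3. Every shCopa library lay above every shCon library, and shCon 1 was the lowest. The mean went from 276 ± 38.2 to 552 ± 25.9 CPM (SD, n = 3 each), a 1.999-fold rise with a log2 fold change of 1.00 ± 0.12 (SE; edgeR adjusted p = 0.000834). The call held under all 16 alternative settings, with log2 fold changes from 0.87 to 1.05.

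The transcript of p53 itself, Trp53, rose as well, from 121 ± 12.97 to 159 ± 6.79 CPM (log2 fold change 0.39 ± 0.10, adjusted p = 0.0221 by edgeR). Leaving out shCon 2, shCon 3 or any single shCopa library ended this call (edgeR adjusted p from 0.056 to 0.0935). Mdm4, a paralog of Mdm2 that restrains p53 without ligase activity of its own, was at 172 ± 67.4 CPM in shCon and 140 ± 14.2 CPM in shCopa and did not pass (-0.30 ± 0.28, adjusted p = 0.435 by edgeR). In the fit without shCon 1, the log2 fold change of Mdm4 was -0.58 (adjusted p = 0.0119 by edgeR), while Mdm2 stood at 0.88 in that fit.

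Among the genes that slow the cell cycle, Cdkn1a (ENSMUSG00000023067), which encodes the CDK inhibitor p21, was at 448, 369 and 363 CPM in shCon 1 to 3, against 464, 505 and 533 CPM in shCopa 1 to 3. The highest control library, shCon 1, came close to the lowest knockdown library, shCopa 1. Its mean rose 1.27-fold, from 393 ± 47.3 to 501 ± 35.0 CPM (log2 fold change 0.35 ± 0.11, edgeR adjusted p = 0.0474). This is the smallest rise among the 5 and the least stable call: it was lost under 8 of 16 alternatives. Without shCon 2, shCon 3, shCopa 1, shCopa 2 or shCopa 3 the adjusted p was 0.146, 0.132, 0.0789, 0.144 and 0.17, and without shCon 1 it was 4.75e-06 at a log2 fold change of 0.45. With no filter on low counts it was 0.0917.

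Gadd45a (ENSMUSG00000036390), whose product binds PCNA and CDK1 complexes and acts in DNA repair and growth arrest, was at 109, 61.1 and 67.7 CPM in shCon 1 to 3, against 202, 212 and 208 CPM in shCopa 1 to 3. The control libraries spread widely, with shCon 1 the highest, and the knockdown libraries lay close together above them. The rise was 2.62-fold (log2 fold change 1.39 ± 0.21, edgeR adjusted p = 0.00216), and without shCon 1 the log2 fold change was 1.68.

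Plk2 (ENSMUSG00000021701), a Polo-like kinase induced by p53 and by other stimuli, showed the largest rise of the 10. Its level was 199, 222 and 227 CPM in shCon 1 to 3 and 862, 955 and 1014 CPM in shCopa 1 to 3, so the lowest knockdown library was far above the highest control. The mean rose 4.37-fold, from 216 ± 15.1 to 944 ± 76.7 CPM (log2 fold change 2.13 ± 0.11, adjusted p = 3.44e-05 by edgeR), and the estimate ranged from 2.01 to 2.19 over the alternatives.

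**Figure D2:**
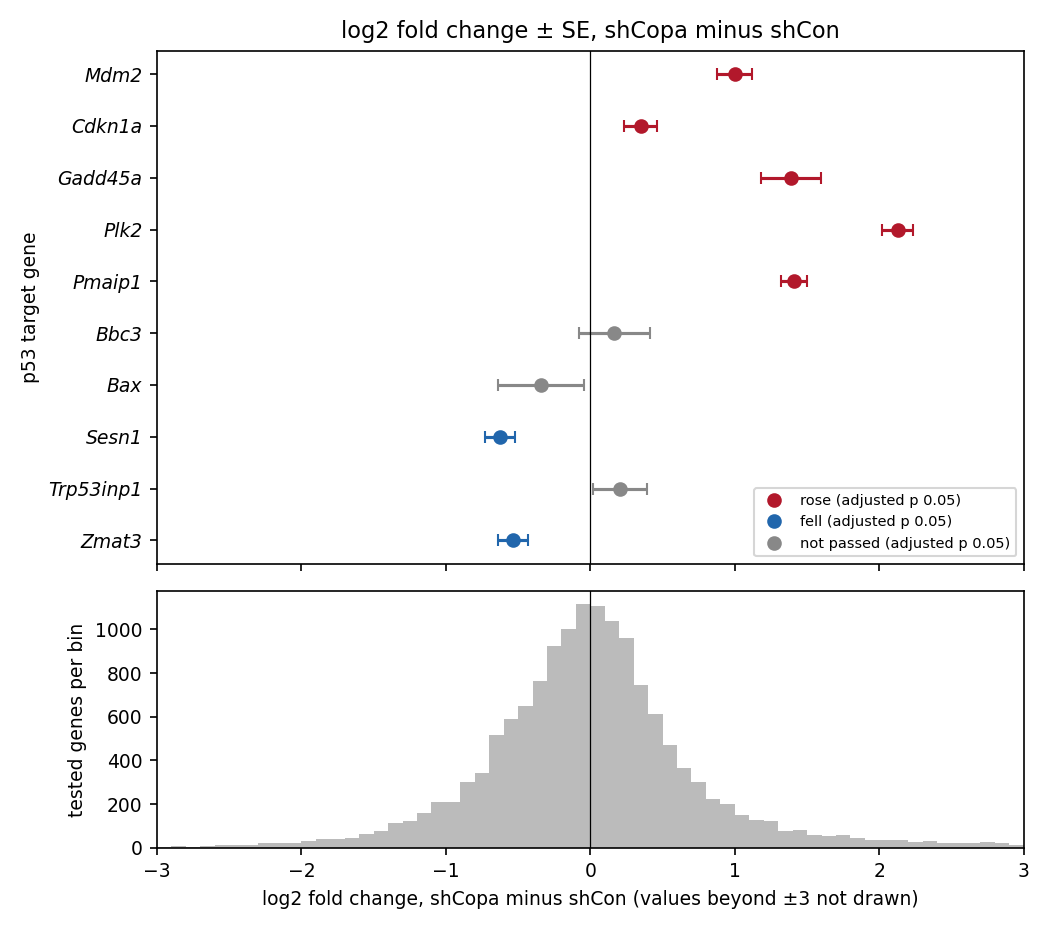
Top, log2 fold change with its SE for each of the 10 genes (x axis), in red where it rose, blue where it fell and grey where it did not pass. Bottom, the same axis for all tested genes in bins of the log2 fold change, with values beyond 3 in size left out. Plk2 at 2.13 lies farthest from the centre of the distribution, and Bax has the widest SE, 0.30.

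Of the 3 genes that act in mitochondrial apoptosis, 1 rose and 2 did not pass. Pmaip1 (ENSMUSG00000024521) encodes NOXA, a BH3-only protein that neutralises MCL1. It was at 62.3, 60.8 and 65.96 CPM in shCon 1 to 3, against 165, 160 and 178 CPM in shCopa 1 to 3, with both groups tight and well apart. The rise was 2.66-fold (log2 fold change 1.41 ± 0.09, edgeR adjusted p = 6.83e-05), and shCon 1 lay between the other controls. The SE is the smallest of the 10 genes.

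Bbc3 (ENSMUSG00000002083) encodes PUMA, a BH3-only protein that binds all anti-apoptotic BCL2 proteins. It was at 48.9, 24.0 and 29.1 CPM in shCon 1 to 3, against 39.3, 39.3 and 35.7 CPM in shCopa 1 to 3. Here shCon 1 was above every shCopa library and shCon 2 and 3 were below every one, so the groups overlapped through a single library. The log2 fold change was 0.17 ± 0.25 (adjusted p = 0.632 by edgeR). Without shCon 1 it was 0.52 (adjusted p = 8.03e-05 by edgeR), with offsets fitted per library against length and GC content of transcripts 0.75 (0.000358), and without shCon 2 it was -0.04 (0.91).

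Bax (ENSMUSG00000003873), the pore-forming effector that permeabilises the mitochondrial outer membrane, was at 182, 82.5 and 82.8 CPM in shCon 1 to 3, against 89.3, 89.9 and 94.4 CPM in shCopa 1 to 3. Again shCon 1 was above every shCopa library and shCon 2 and 3 were below every one. The log2 fold change was -0.34 ± 0.30 (adjusted p = 0.408 by edgeR). It turned to 0.14 without shCon 1 (adjusted p = 0.0537 by edgeR) and, under the offsets for length and GC content, to 0.21 (0.15). No fit called it.

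Of the 3 genes that act in stress defence and RNA control, 2 fell. Sesn1 (ENSMUSG00000038332) encodes sestrin 1, which restrains mTORC1 and oxidative stress. It was at 39.5, 38.0 and 38.6 CPM in shCon 1 to 3, against 27.3, 25.8 and 22.3 CPM in shCopa 1 to 3. All 3 control libraries, shCon 1 included, lay close together and above every knockdown library. The level fell to 64.9% of control (log2 fold change -0.62 ± 0.11, edgeR adjusted p = 0.00336), and the call held under all 16 alternatives.

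Zmat3 (ENSMUSG00000027663) encodes an RNA-binding zinc finger protein. It was at 191, 233 and 231 CPM in shCon 1 to 3, against 146, 150 and 156 CPM in shCopa 1 to 3. The groups did not overlap, and the level fell to 68.9% of control (log2 fold change -0.54 ± 0.10, edgeR adjusted p = 0.0063). The call held under all 16 alternatives, with log2 fold changes from -0.71 to -0.49.

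Trp53inp1 (ENSMUSG00000028211), whose product acts in autophagy and in p53-dependent cell death, was at 170, 252 and 281 CPM in shCon 1 to 3, against 296, 272 and 242 CPM in shCopa 1 to 3. The groups overlapped, with shCon 1 the lowest of the 6 libraries. The log2 fold change was 0.20 ± 0.19 (adjusted p = 0.43 by edgeR), and 0.01 without shCon 1. No alternative called it.

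Levels can be compared between genes only per length, so CPM were divided by the longest annotated transcript of each gene and scaled to the same total in each library (TPM). In shCon, Cdkn1a was the most abundant of the 10 at 494 ± 10.5 TPM (SD, n = 3) and Sesn1 the least at 26.7 ± 2.05 TPM, each apart from its neighbour in every library. Between them came Bax (268 ± 104 TPM), Mdm2 (233 ± 51.7), Plk2 (204 ± 32.3), Gadd45a (167 ± 36.9), Trp53inp1 (115 ± 36.9), Zmat3 (74.2 ± 14.5), Pmaip1 (60.9 ± 6.84) and Bbc3 (48.2 ± 13.7). From Bax to Bbc3, the ranges of every neighbouring pair overlapped across libraries. Within each shCon library, Mdm2 was above Plk2, Gadd45a above Trp53inp1, Trp53inp1 above Zmat3 and Zmat3 above Pmaip1. The order of Bax and Mdm2, of Plk2 and Gadd45a, and of Pmaip1 and Bbc3 changed between libraries. In shCopa, Plk2 led at 942 ± 60.8 TPM, ahead of Cdkn1a (672 ± 35.7), then Mdm2 (491 ± 19.2) and Gadd45a (473 ± 8.29), which overlapped. Bax (232 ± 4.45), Pmaip1 (172 ± 8.09) and Trp53inp1 (139 ± 16.4) followed without overlap, then Bbc3 (58.8 ± 4.05) and Zmat3 (54.0 ± 0.955), which overlapped, and Sesn1 (18.4 ± 2.18).

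The library shCon 1, on which the sign of Bax and the call of Bbc3 turned, differed from shCon 2 and 3 along transcript length. Over 14781 tested genes with a length, the log2 difference between shCon 1 and the mean of shCon 2 and 3 had a Spearman's rho of -0.563 (Pearson's r -0.503) with transcript length and a rho of 0.368 with GC content. These are descriptions across genes of 3 libraries, and genes are not independent replicates. With genes parted into 4 equal classes by length, the shortest class had a median difference of 0.38 and the longest -0.37. Among the members, the difference was 1.13 for Bax (1100 bases), 0.88 for Bbc3 (1814 bases), 0.75 for Gadd45a (1223 bases) and 0.29 for Cdkn1a (2080 bases). It was 0.04 for Sesn1 (3809 bases), -0.02 for Pmaip1 (2727 bases), -0.18 for Plk2 (2800 bases), -0.28 for Zmat3 (7797 bases), -0.36 for Mdm2 (3145 bases) and -0.64 for Trp53inp1 (5432 bases). In the fit without shCon 1, 28.3% of 15273 genes were called higher and 27.0% lower, and of the members 6 rose and 2 fell, Bbc3 being the addition.

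**Figure D3:**
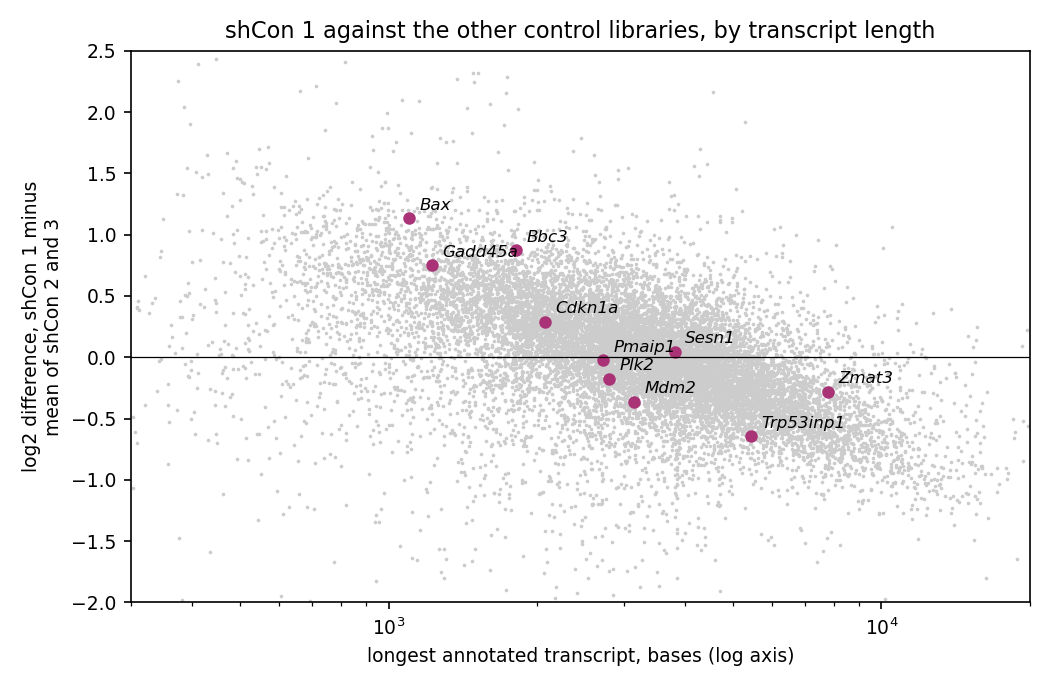
Each grey point is 1 tested gene, with the length of its longest annotated transcript in bases on the log x axis and the log2 difference between shCon 1 and the mean of shCon 2 and 3 on the y axis; the 10 genes are named. The short Bax, Gadd45a and Bbc3 lie between 0.75 and 1.13 and the long Trp53inp1 at -0.64.

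**Figure D4:**
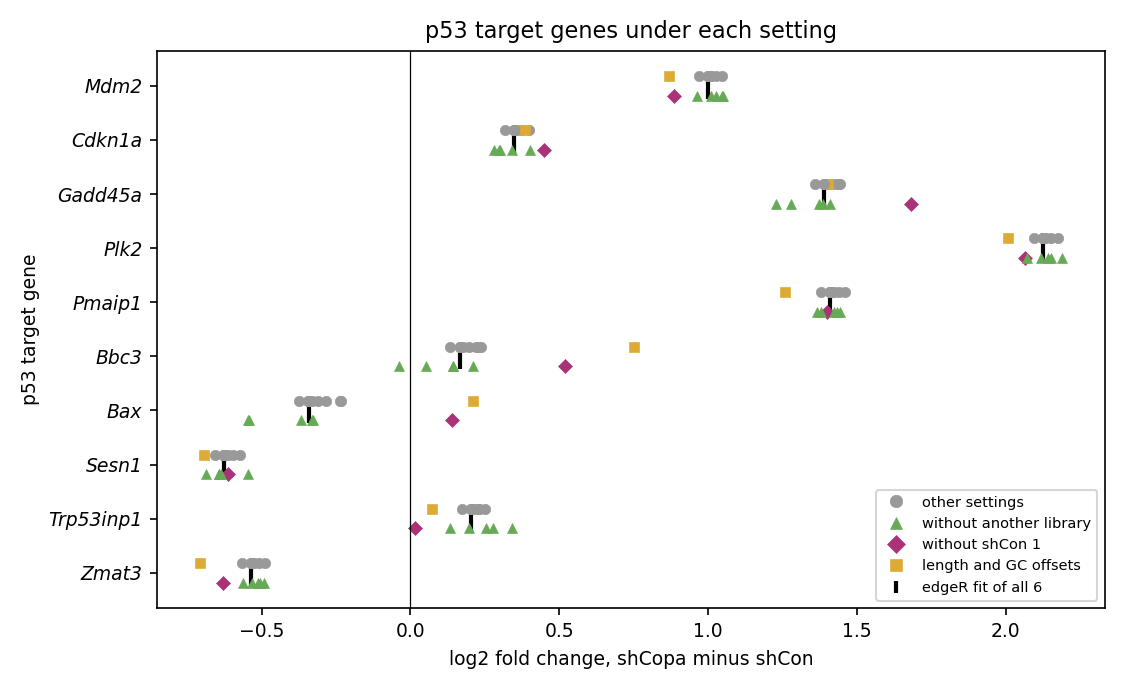
The log2 fold change of each of the 10 genes (x axis) in the edgeR fit of all 6 libraries (black bar), without shCon 1 (diamond), without each other library (triangle), with length and GC offsets (square) and under the other settings (grey). Bax and Bbc3 cross 0, while Mdm2, Gadd45a, Plk2, Pmaip1, Sesn1 and Zmat3 keep their side and their call throughout.

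Of 9 listed paralogs of the members, all tested, 3 rose, 3 fell and 3 did not pass, where 18.2% of all tested genes were higher and 18.4% lower. The other GADD45 genes rose together with Gadd45a: Gadd45b, from 44.2 ± 4.21 to 143 ± 13.3 CPM (3.23-fold, edgeR adjusted p = 8.91e-05), and Gadd45g, from 51.6 ± 14.1 to 185 ± 20.8 CPM (3.60-fold, 0.000496). Sesn2 fell like Sesn1, from 54.1 ± 5.84 to 25.9 ± 0.929 CPM (47.9% of control, edgeR adjusted p = 0.000388), while Sesn3 did not pass (log2 fold change 0.05 ± 0.20) and turned to -0.17 without shCon 1 (adjusted p = 0.013).

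The CDK inhibitors of the p21 family parted. Cdkn1b (p27) fell from 66.7 ± 1.74 to 39.3 ± 0.611 CPM (58.8% of control, edgeR adjusted p = 0.000442), and Cdkn1c (p57) rose from a low level, with 11, 5 and 7 counts in shCon 1 to 3 and 45, 45 and 57 counts in shCopa 1 to 3 (log2 fold change 2.74 ± 0.38, edgeR adjusted p = 0.00154). Trp53inp2, an autophagy factor, fell to 61.6% of control (edgeR adjusted p = 0.0007), and Plk3, at 3.62 ± 1.54 and 4.401 ± 1.58 CPM, did not pass.

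A further 40 genes widely held to be p53 targets were listed, of which 39 were tested: 13 rose, 7 fell and 19 did not pass, with a median log2 fold change of 0.18, beside 18.2% of all tested genes higher and 18.4% lower. Steap3, a metalloreductase, rose 3.999-fold from 6.74 ± 0.372 to 27.0 ± 0.412 CPM (edgeR adjusted p = 4.45e-05). Gdf15, a secreted stress cytokine, rose 2.80-fold from 354 ± 88.1 to 990 ± 90.5 CPM, and Tnfrsf10b, the mouse TRAIL death receptor, 1.87-fold. In the other direction, Ddb2, a sensor of ultraviolet damage, fell to 49.3% of control, Dgka, a diacylglycerol kinase, to 58.3%, Foxo3, a transcription factor, to 65.0% and the receptor kinase Epha2 to 66%. With 1 library left out, 8 to 19 of the 39 rose and 6 to 11 fell. The 8 came without shCopa 1, in a fit that called 3710 of all genes. The 19 and the 11 came without shCon 1, a fit in which 28.3% of all genes were higher and 27.0% lower.

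Of 22 listed regulators of p53, p53 itself included, 20 were tested: 2 rose (Trp53 and Chek2), 1 fell (Kat5) and 17 did not pass, with a median of 0.15, where 36.5% of all tested genes were called. Chek2, a kinase that phosphorylates p53 after DNA breaks, rose 1.70-fold from 13.7 ± 0.608 to 23.4 ± 2.32 CPM, and Kat5, an acetyltransferase that acts on p53, fell to 62.5% of control. The p53 relatives Trp63 and Trp73 were too low to test. Without shCon 1, 7 regulators rose and 4 fell, beside 28.3% of all genes higher and 27.0% lower in that fit.

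**Figure D5:**
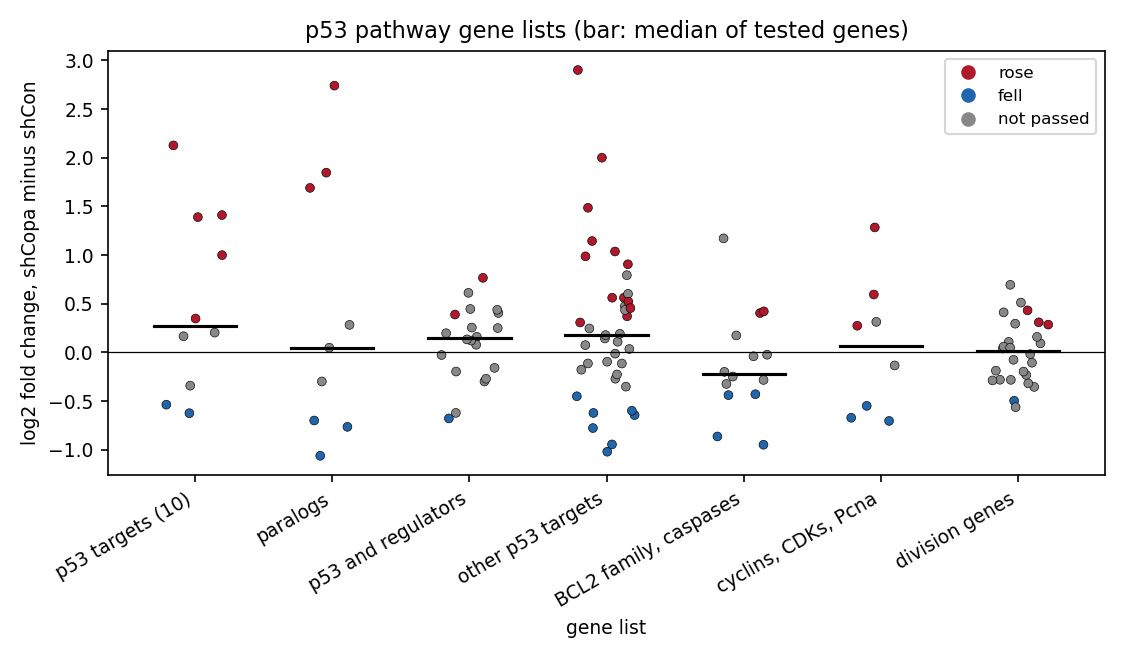
Each point is 1 tested gene, with its log2 fold change on the y axis, in red where it rose, blue where it fell and grey where it did not pass, and the bar is the median of a list. The medians run from -0.22 for the BCL2 family and caspases to 0.28 for the 10 p53 targets, and the division genes span -0.56 to 0.69.

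Of 16 BCL2 family and caspase genes, which include the partners of BAX, PUMA and NOXA, 14 were tested: 2 rose, 4 fell and 8 did not pass (median -0.22), beside the 18.2% higher and 18.4% lower of all tested genes. Mcl1, the anti-apoptotic partner of NOXA, fell from 280 ± 14.0 to 207 ± 11.0 CPM (73.8% of control, edgeR adjusted p = 0.00736; 0.0514 without shCopa 2), while Pmaip1 rose. Bmf, a BH3-only gene, fell to 51.8% of control (0.000341). Bak1, the second pore-forming effector, rose 1.32-fold (0.00744). The calls of Bid (1.34-fold higher), Bad (54.9% of control) and Casp9 (74.2% of control) were each ended by leaving out any single shCopa library, with edgeR adjusted p up to 0.0953, 0.0986 and 0.0702; that of Bid was also lost without shCon 2 or shCon 3, and that of Casp9 without shCon 2. From 1 to 6 of these genes fell with 1 library left out. Without shCopa 2, 1 rose and 1 fell, in a fit that called 3565 of all genes. Without shCon 1, 2 rose and 6 fell, beside 28.3% of all genes higher and 27.0% lower in that fit.

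Of 8 genes of proteins that p21 binds, which are cyclins, CDKs and Pcna, 3 rose, 3 fell and 2 did not pass (median 0.07), beside 18.2% and 18.4% of all tested genes. Ccnd1, cyclin D1, rose 2.43-fold from 1179 ± 53.7 to 2869 ± 117 CPM (edgeR adjusted p = 8.83e-05), while Ccnd2 fell to 62.8% of control, Cdk4 to 61.4% and Ccnd3 to 68.3%. Cdk6 (1.51-fold) and Cdk2 (1.21-fold) rose; these calls, and that of Ccnd3, ended when any single shCopa library was left out (edgeR adjusted p up to 0.115, 0.126 and 0.102), the first also without shCon 3 (0.0517) and the second without shCon 2 (0.12) or shCon 3 (0.0892).

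Division genes that p53 is known to repress by way of p21 and the DREAM complex made up a list of 26, all tested. Of these, 22 did not pass, 3 rose (Ccnb1, 1.35-fold; Mcm2, 1.24-fold; Cdc20, 1.22-fold) and 1 fell (Ccnb2, 70.9% of control), with a median log2 fold change of 0.01, where 36.5% of all tested genes were called. The calls of Mcm2 and Cdc20 were lost without any 1 library other than shCon 1 (edgeR adjusted p up to 0.177 and 0.163), and that of Ccnb2 without shCopa 1 (0.0546). Without shCon 1, 4 rose and 7 fell, against 28.3% of all genes higher and 27.0% lower.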

How the data were processed

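RNA-seq of 6 libraries, 3 shCon and 3 shCopa, was used, with groups and replicate numbers from the sample titles. The authors deposited estimated counts per Ensembl gene, of which 10.6% to 11.9% in a library were not whole. The submitters' processing notes name Trimmomatic, HISAT2 2.0.5, HTSeq, featureCounts and DESeq2 with the build GRCm39; which of them made the table, with which annotation and whether strand was used, is not given in the sources used here, so reads shared with paralogs, pseudogenes or antisense genes may have been divided in ways the table does not show. Symbols came from GENCODE M21 and were found for 52081 of 55414 identifiers; for 67 symbols with several identifiers the one with the most counts was used.

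After rounding, counts went into edgeR 4.0.16 (R 4.3.3), with TMM scaling, the filterByExpr filter, robust quasi-likelihood fits and Benjamini-Hochberg adjustment over 14807 genes at a threshold of 0.05. The SE was taken from the fold change and its F statistic, and CPM use TMM-scaled library sizes. A floor of 3 counts is 0.122 to 0.153 CPM by library totals without TMM scaling, and covers counting error only. On simulated counts for 14526 genes of this comparison, 19.4% of 67 genes changed 1.5-fold, 67.2% of 67 changed 2-fold and 97.0% of 66 changed 4-fold were recovered, with 5 false calls among 127. Only 200 genes were changed there, against 5411 called in the data, which makes the Benjamini-Hochberg adjustment stricter in the simulation. Genes were drawn independently and without the shift of shCon 1 along transcript length. These shares are therefore not the recovery rates of the data. Transcript lengths, GC content and TPM used the longest GENCODE M21 transcript. Alternatives were other scaling, other filters, DESeq2 1.42.0, limma-voom (limma 3.58.1), a replicate block, a threshold of 0.01, length and GC offsets, and each library left out. In fits with 2 libraries in a group, the spread is estimated over both groups. The 10 genes, the other lists and the tests were chosen with earlier results of these data known. Named genes were all members, Copa, Trp53, the paralogs, and from each other list up to 4 genes per direction with the smallest adjusted p. Further genes of the marker lists were named for the check of the cell type. Some genes that meet this rule are counted but their values are not reported here.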

Additional observations from a re-analysis of the deposited data

How the results depend on the processing

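Of the 10 genes, Mdm2, Plk2, Pmaip1, Sesn1, Gadd45a and Zmat3 kept their direction and call, and Trp53inp1 its lack of one, under all 16 alternatives. The number that rose ranged from 4 to 6 and the number that fell stayed at 2 with 1 library left out. The 6 came without shCon 1, where 28.3% of all genes were higher and 27.0% lower. Reversals were those of Bax without shCon 1 (0.14) and with the length and GC offsets (0.21), of Bbc3 without shCon 2 (-0.038) and of Sesn3 without shCon 1 (-0.17) and with the offsets (-0.13). With 1 library left out, the log2 fold change ran from -0.55 to 0.14 for Bax, from -0.038 to 0.52 for Bbc3 and from -0.17 to 0.18 for Sesn3. The call of Cdkn1a was lost in 8 alternatives and Bbc3 gained one in 2. The number of genes called, 5411, was 3177 at a threshold of 0.01 and 3533 to 8439 with 1 library left out, highest without shCon 1. The cause was not tested. With the replicate block, 3903 genes were called, 4 members rose and 2 fell; Cdkn1a lost its call (edgeR adjusted p = 0.125). The correlation of deviations from the group means between same-numbered libraries was -0.162, -0.058 and -0.114 for numbers 1 to 3. No library correlated best with its own number. Deviations from a mean of 3 depend on one another, so this check cannot decide whether same-numbered libraries were prepared together. The median of all genes was -0.01, 0.04 with library totals alone and -0.06 with the length and GC offsets. In the simulation, which changed only 200 genes, 19.4% of those changed 1.5-fold were recovered. This is not the recovery rate of the data, and smaller changes were not simulated.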
